A study of Homo sapiens with 38 samples.

Results

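Polycomb complex genes encode the subunits of 2 chromatin complexes that keep genes silent. In this study 10 of them were followed by their gene symbols in RNA-seq of RKO cells: EZH1, EZH2, SUZ12, EED, JARID2, BMI1, RNF2, RING1, CBX2 and CBX8. They are 10 of the 25504 genes with a unique name in the expression table and were matched by symbol. RKO is a human colorectal cancer cell line. Cells were treated with DMSO at 0.1%, with NCD38, an inhibitor of the histone demethylase LSD1, or with NCD38-β2P4 or NCD38-β2PIPP. In these conjugates NCD38 is joined through a linker of β-alanine to a pyrrole-imidazole polyamide, a small molecule that binds the minor groove of DNA. The polyamide of NCD38-β2P4 is made of pyrrole rings only and was designed for runs of A and T, and that of NCD38-β2PIPP carries an imidazole ring and was designed for CG flanked by A or T. Every treatment was sequenced at both times, day 30 and day 4, from a single library each, which gives 8 libraries. The labels give 2 μM of inhibitor with DMSO as the vehicle for both days, whereas the Methods give 2 mM for day 4, and the medium was refreshed every 5 days. No unconjugated polyamide was measured by RNA-seq. Of the 38 samples of the series, the ChIP samples were not analysed here.

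Polycomb repressive complex 2 (PRC2) methylates lysine 27 of histone H3. Its catalytic subunit is EZH2 or EZH1, and SUZ12 and EED are needed for its activity. Polycomb repressive complex 1 (PRC1) ubiquitinates histone H2A through RNF2 or RING1, and its CBX subunits bind methylated H3K27. EZH2 is commonly higher in dividing than in resting cells, and EZH1 is the paralog that is kept in non-dividing cells.

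The values are FPKM, the number of fragments scaled to exon length and to library depth. A gene was called expressed where its FPKM averaged 1 or more across libraries. There were 10865 such genes, and all 10 Polycomb genes passed this filter and were above 0 in all 8 libraries. Depth, estimated from the FPKM that a single fragment gives, was between 1.32e+07 and 2.41e+07 fragments per library. The libraries of NCD38 and NCD38-β2PIPP on day 4 stood apart from DMSO of the same day, with a median log2 ratio over expressed genes of -0.21 and 0.17. Across genes, these ratios went with transcript GC content, with Spearman's rho of 0.59 for NCD38 and -0.69 for NCD38-β2PIPP. Epithelial markers were only partly expressed, with KRT18 between 76.2 and 121, KRT8 between 6.58 and 19.0 and CDX2 between 7.48 and 11.6 FPKM in all libraries. EPCAM was between 0.0922 and 6.53 FPKM, KRT19 was at most 0.467, CDH1 was at most 0.0642, and VIL1 was listed at 0. Of the markers of other cells, PTPRC and PECAM1 were listed at 0, COL1A1 and COL1A2 were at most 0.0148 FPKM, and VIM was between 2.17 and 5.88 FPKM. In bulk RNA, fewer cells of a kind and less RNA per cell cannot be told apart.

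In level, RING1 was the highest of the 10 genes and JARID2 the lowest, with means over the 8 libraries of 37.6 and 1.72 FPKM. RING1 did not overlap any other member, as its lowest library, at 29.9 FPKM, exceeded the 17.4 FPKM of the highest EZH2 library. Below it followed EZH2 with a mean of 13.5, CBX8 with 12.0, CBX2 with 10.3, EED with 6.53, SUZ12 with 4.42, RNF2 with 4.24, EZH1 with 3.63 and BMI1 with 2.63 FPKM. The ranges of all these neighbours overlapped, so their order was not resolved over the 8 libraries. The order also depended on the day. CBX2 was between 5.11 and 5.23 FPKM on day 30, below every SUZ12 library of that day, and between 15.0 and 16.4 on day 4, above every SUZ12 library of day 4.

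**Figure D1:**
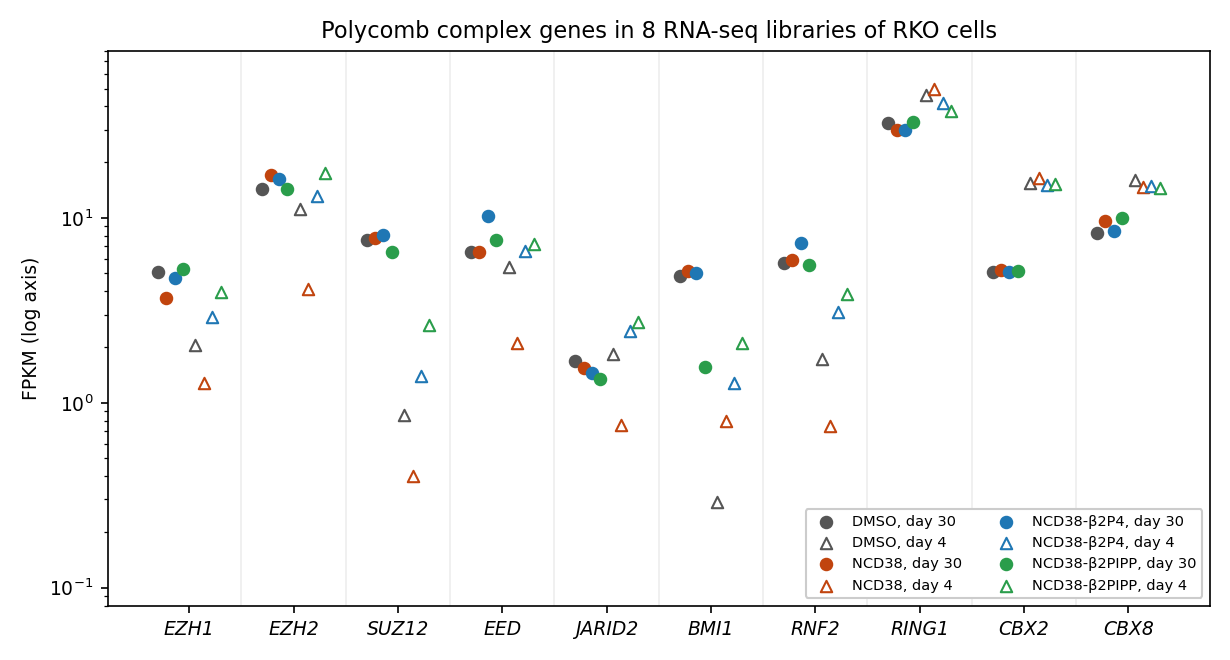
FPKM of the 10 Polycomb complex genes on a log axis, with 1 point per library, circles for day 30, open triangles for day 4 and colours for treatments. SUZ12 and RNF2 lay higher on day 30 and CBX2, CBX8 and RING1 lay higher on day 4, without overlap. How many of all expressed genes did not overlap between the days was not counted. The NCD38 library of day 4 was the lowest of the 8 for 6 genes.

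Among the PRC2 genes, EZH2 encodes the main methyltransferase and lies at chr7:148504349-148581413 on the minus strand (GRCh37, as all gene coordinates here), with 20 exons in its GENCODE transcript. Its FPKM on day 30 was 14.3 under DMSO, 17.1 under NCD38, 16.3 under NCD38-β2P4 and 14.4 under NCD38-β2PIPP. On day 4 it was 11.2, 4.14, 13.1 and 17.4 in the same order. The day 30 libraries differed little from each other, whereas on day 4 NCD38 was the lowest and NCD38-β2PIPP the highest of all 8, so the days overlapped. EZH1, the paralogous methyltransferase at chr17:40852293-40897067 (minus strand, 21 exons), was at 5.09, 3.66, 4.73 and 5.30 FPKM on day 30 and at 2.06, 1.27, 2.92 and 3.96 FPKM on day 4. Within each treatment it was higher on day 30, and NCD38 was the lowest library on both days.

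SUZ12, a scaffold subunit that holds the complex together, lies at chr17:30264026-30328057 (plus strand, 16 exons). In the same order of treatments its FPKM was 7.62, 7.77, 8.10 and 6.55 on day 30 and 0.862, 0.400, 1.40 and 2.64 on day 4. The lowest day 30 library was thus above the highest day 4 library. SUZ12 has a pseudogene copy, SUZ12P, which shares sequence with it, so the division of reads between them is uncertain. SUZ12P was between 7.51 and 11.0 FPKM on day 30 and between 1.07 and 2.84 on day 4, likewise without overlap.

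EED, which binds trimethylated H3K27 and stimulates the enzyme, lies at chr11:85912254-85989855 (plus strand, 12 exons). Its FPKM was 6.53, 6.54, 10.2 and 7.58 on day 30 and 5.44, 2.10, 6.64 and 7.21 on day 4. The days overlapped, with NCD38 on day 4 alone below 5 FPKM. JARID2, an accessory protein that helps to bring PRC2 to DNA, lies at chr6:15246300-15522273 (plus strand, 18 exons). It was between 1.34 and 1.69 FPKM on day 30, and at 1.84, 0.755, 2.46 and 2.73 FPKM on day 4. All day 4 libraries but NCD38 were above all day 30 libraries.

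Of the PRC1 genes, RNF2 encodes RING1B, the main H2A ubiquitin ligase, at chr1:185014658-185071735 (plus strand, 7 exons). Its FPKM was 5.67, 5.94, 7.34 and 5.56 on day 30 and 1.73, 0.751, 3.11 and 3.86 on day 4, in the same order of treatments. The days did not overlap. RING1, its paralog at chr6:33176277-33180499 (plus strand, 7 exons), went the other way, with 32.4, 29.9, 29.9 and 33.0 FPKM on day 30 and 46.3, 49.7, 41.6 and 38.0 FPKM on day 4. Here too the days did not overlap. BMI1, at chr10:22610028-22620413 (plus strand, 10 exons), encodes the partner that activates the ligase, and was at 4.86, 5.15, 5.03 and 1.56 FPKM on day 30 and at 0.292, 0.798, 1.28 and 2.09 FPKM on day 4. NCD38-β2PIPP on day 30 fell within the range of day 4.

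CBX2 and CBX8 encode chromobox subunits that read methylated H3K27, and the 2 genes are neighbours on chromosome 17. CBX2 lies at chr17:77751947-77761782 (plus strand, 5 exons) and CBX8 at chr17:77765931-77775482 (minus strand, 5 exons). CBX2 was at 5.11, 5.23, 5.12 and 5.16 FPKM on day 30 and at 15.4, 16.4, 15.0 and 15.2 FPKM on day 4. It hardly varied within a day, and the days did not overlap. CBX8 was at 8.29, 9.61, 8.48 and 9.98 FPKM on day 30 and at 15.9, 14.6, 14.9 and 14.5 FPKM on day 4, again without overlap. How many of all expressed genes did not overlap between the days was not counted. In the fit below, which is a different measure, 61.9% of them differed between the days. No lack of overlap is therefore read here as particular to these genes.

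Within each treatment, the days were first set against each other by a log2 ratio, with 1 added to each FPKM, counting genes that differed at least 2-fold. With DMSO, 3 of the 10 genes were higher on day 30 (SUZ12 at 2.21, BMI1 at 2.18 and RNF2 at 1.29) and 1 was lower (CBX2 at -1.42). Among all expressed genes 41.4% differed, 24.1% higher and 17.3% lower. With NCD38, 6 were higher, namely SUZ12, RNF2, EZH2, BMI1, EED and EZH1, at 2.65 down to 1.04, and CBX2 was lower at -1.48. All expressed genes gave 54.0%, with 36.0% higher and 18.1% lower. With NCD38-β2P4, 3 were higher, SUZ12 at 1.92, BMI1 at 1.40 and RNF2 at 1.02, and CBX2 was lower at -1.39, beside 38.2% of expressed genes, 21.4% higher and 16.8% lower. With NCD38-β2PIPP, only SUZ12 was higher, at 1.05, and only CBX2 lower, at -1.40, beside 32.9%, 13.7% higher and 19.2% lower. SUZ12 and CBX2 were thus past 2-fold under all 4 treatments, in opposite directions, and EZH2, EED and EZH1 with NCD38 only.

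The difference between the days was tested over all 8 libraries with limma, using day and treatment as additive terms on log2 of FPKM plus 1, which leaves 3 residual degrees of freedom. The test adjusts p-values by the Benjamini-Hochberg method over all expressed genes. Day 30 and day 4 cannot be told apart from anything else that differed between these sets of libraries. Nothing states how many cultures were behind a library, so p-values measure only the spread between these libraries. On day 30, 4 of the 10 genes were higher, namely SUZ12, BMI1, RNF2 and EZH1, and 3 were lower, namely CBX2, CBX8 and RING1. Over all expressed genes, 61.9% passed the same threshold of 0.05, with 30.2% higher and 31.7% lower, so the share of 7 of 10 was close to that of all genes.

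SUZ12 rose by a log2 difference of 1.96 ± 0.28 (SE, n = 4 libraries per day, limma adjusted p = 0.00255), the largest of the 10, and was higher in 4 of 4 treatments. RNF2 rose by 1.18 ± 0.28 (limma adjusted p = 0.0135), also in 4 of 4 treatments. BMI1 rose by 1.27 ± 0.42 (limma adjusted p = 0.0431), in 3 of 4 treatments. EZH1 rose by 0.73 ± 0.19 (limma adjusted p = 0.0186), in 4 of 4 treatments. In the other direction, CBX2 decreased by 1.42 ± 0.13 on the log2 scale (limma adjusted p = 0.000696), CBX8 by 0.67 ± 0.13 (limma adjusted p = 0.00812) and RING1 by 0.47 ± 0.13 (limma adjusted p = 0.0216), each in 4 of 4 treatments.

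For EZH2 the log2 difference was 0.54, with a 95% interval from -0.33 to 1.42 (limma adjusted p = 0.224). For EED it was 0.53, from -0.07 to 1.13 (limma adjusted p = 0.105), and for JARID2 it was -0.18, from -0.78 to 0.42 (limma adjusted p = 0.540). These intervals include changes of more than 1.5-fold for EZH2, EED and JARID2. With any of the 2 DMSO or the 2 NCD38-β2P4 libraries left out, only 2 of the 10 genes passed, SUZ12 and CBX2. In those fits 42.0% to 44.3% of all expressed genes passed, in place of 61.9%, so calls fell over all genes. Over the 8 fits that left out 1 library, the difference was 1.73 to 2.26 for SUZ12 and -1.43 to -1.40 for CBX2. Leaving out either library of a treatment gave the same day difference, because the treatment term then takes up its other library. These fits thus hold only 1 distinct check per treatment. Other lists also differed between the days, and their part in these differences was not tested. The epithelial marker EPCAM was between 3.94 and 6.53 FPKM on day 30 and between 0.0922 and 0.867 on day 4, whereas KRT18 overlapped. The 12 S phase genes had a median log2 ratio of day 30 to day 4 of -1.01 with DMSO and -0.33 with NCD38.

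The direction of the day difference went with the base composition of the transcripts. The transcripts of RNF2, SUZ12 and BMI1 have a GC content of 36.0%, 38.2% and 40.1%, and those of CBX8, CBX2 and RING1 one of 57.4%, 59.5% and 61.6%. EZH2 and EED are both at 44.9%, and JARID2 and EZH1 at 49.9% and 50.6%, beside a median of 49.6% for expressed genes. The contrast is visible in the coding sequence itself. The following lines give 150 bases from the middle of the coding sequence of RNF2 and SUZ12, which were higher on day 30, and of CBX2 and RING1, which were lower. They are taken from GENCODE release 44 on GRCh37, read 5′ to 3′ along the coding strand, and G and C are in capitals.
RNF2: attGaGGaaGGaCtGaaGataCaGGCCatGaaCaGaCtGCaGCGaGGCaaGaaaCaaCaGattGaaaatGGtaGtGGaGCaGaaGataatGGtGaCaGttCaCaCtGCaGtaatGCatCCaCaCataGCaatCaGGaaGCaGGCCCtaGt
SUZ12: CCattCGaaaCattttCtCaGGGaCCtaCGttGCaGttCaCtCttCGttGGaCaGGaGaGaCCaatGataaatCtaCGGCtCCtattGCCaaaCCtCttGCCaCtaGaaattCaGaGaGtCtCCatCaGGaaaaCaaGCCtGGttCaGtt
CBX2: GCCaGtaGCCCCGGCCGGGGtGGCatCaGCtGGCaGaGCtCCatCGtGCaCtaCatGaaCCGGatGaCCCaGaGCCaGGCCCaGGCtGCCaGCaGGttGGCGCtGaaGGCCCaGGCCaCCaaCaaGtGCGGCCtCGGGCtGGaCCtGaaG
RING1: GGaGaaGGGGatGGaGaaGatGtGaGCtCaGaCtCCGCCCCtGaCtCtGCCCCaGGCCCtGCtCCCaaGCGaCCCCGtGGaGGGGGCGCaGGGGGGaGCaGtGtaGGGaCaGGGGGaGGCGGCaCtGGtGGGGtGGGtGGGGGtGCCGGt
In these stretches G and C make up 46.0% for RNF2, 45.3% for SUZ12, 67.3% for CBX2 and 70.7% for RING1.

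The same trend held over all expressed genes with a matched transcript. When these were divided into 20 bins by GC content, the median day difference fell from 1.55 on the log2 scale in the lowest bin, around 36.2% GC, to -0.71 in the highest, around 66.4%. Compared with genes of their own bin, 8 of the 10 Polycomb genes lay between the lower and upper quartiles. EZH1, at 0.73, was above the upper quartile of its bin, 0.13, and CBX2, at -1.42, was below the lower quartile of its bin, -1.22. When the median of each bin was subtracted before the fit, 4 of the 10 genes passed the threshold, beside 55.9% of all genes tested. EZH1 was higher on day 30 by 1.04 ± 0.12 (SE, limma adjusted p = 0.00133) and SUZ12 by 0.55 ± 0.11 (limma adjusted p = 0.00718). CBX2 decreased by 0.64 ± 0.09 (limma adjusted p = 0.00235). RNF2 turned and decreased by 0.40 ± 0.13 (limma adjusted p = 0.0395). The signs of CBX8 and RING1 turned as well, to 0.048 and 0.23, with adjusted p = 0.719 and 0.0790 from limma, and BMI1 came to 0.06 (limma adjusted p = 0.852). EZH1 thus had the largest difference of the 10 after this step. In the ratios within a treatment, after the same subtraction, EZH1 was the 1 gene of 10 past 2-fold with DMSO, at 1.35 (21.6% of all genes), and with NCD38, at 1.05 (23.6%). With NCD38-β2P4 and NCD38-β2PIPP 0 of 10 were (19.0% and 21.1%), and EZH1 was at 0.88 and 0.86. Whether GC content entered the values through library preparation or through the cells was not tested.

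**Figure D2:**
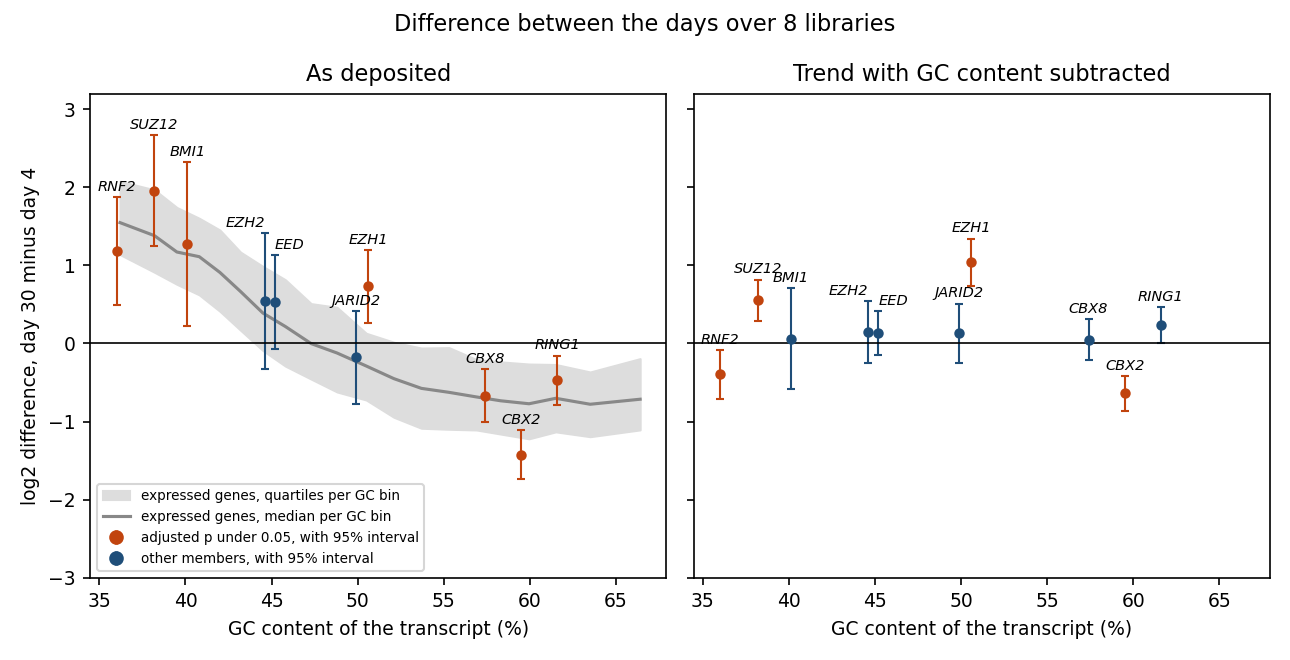
Log2 difference between day 30 and day 4 against the GC content of the transcript, with 95% intervals from limma. In the left panel the grey line and band give the median and quartiles of all expressed genes in 20 GC bins, and the right panel shows the same 10 genes after subtraction of the bin median. RNF2, BMI1, CBX8 and RING1 lay inside the grey band, and EZH1 and CBX2 outside it.

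Each inhibitor was next set against DMSO of the same day by the same log2 ratio, in which the added 1 makes the change of a low gene smaller. With 1 library per condition there is no test, and a log2 ratio of 1 or more in either direction, which is 2-fold, was counted. The comparisons of a day share their DMSO library. A counting half-width, the 95% range that counting of fragments alone gives to the ratio without the added 1, was computed from the estimated depth and covers counting error only.

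On day 30 most of the 10 genes were close to DMSO. With NCD38, 0 of 10 reached 2-fold, against 1.66% of all expressed genes, and their log2 ratios lay between -0.39 for EZH1 and 0.25 for EZH2. With NCD38-β2P4, 0 of 10 reached it, against 1.0%, and the highest ratio was 0.57 for EED. With NCD38-β2PIPP, 1 of 10 did, against 1.17% in either direction and 0.359% lower, and this was BMI1 at -1.19. In the same order of inhibitors, the median over the 10 genes was 0.03, 0.04 and 0.01, beside 0.06, 0.06 and -0.01 over all expressed genes.

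On day 4 the inhibitors spread apart. With NCD38, 7 of 10 genes were below DMSO and 2 of 10 were at least 2-fold lower, against 5.41% of expressed genes changed in either direction and 4.54% lower. These were EZH2, at 4.14 against 11.2 FPKM with a log2 ratio of -1.25, and EED, at 2.10 against 5.44 FPKM with one of -1.05. The counting half-widths were 0.27 and 0.43, and the estimated fragments in the NCD38 library were 144 for EZH2 and 56.9 for EED. JARID2 at -0.70, RNF2 at -0.64, EZH1 at -0.43 and SUZ12 at -0.41 were also below DMSO, while BMI1 at 0.48, RING1 at 0.10 and CBX2 at 0.09 were above. The ratios depended on how the shift of this library was treated. When libraries were rescaled by their median ratio, EZH2 was at -0.91 and EED at -0.77, while BMI1 was at 0.66, RING1 at 0.49 and CBX2 at 0.47, and CBX8 turned from -0.11 to 0.26. When the trend with GC content was subtracted, EZH2 was at -0.65, EED at -0.45 and BMI1 at 0.87, and RING1 and CBX2 turned to -0.10 and -0.081, so that no member reached 2-fold in either case (0 of 10, beside 1.48% of genes after the GC subtraction).

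With NCD38-β2P4 on day 4, 0 of 10 genes reached 2-fold, against 1.91% of expressed genes. Their ratios lay between -0.15 for RING1 and 0.82 for BMI1, with a median of 0.26 beside 0.09 over all expressed genes. These ratios too went with GC content across genes (Spearman's rho of -0.53), and after its trend was subtracted the member median was -0.0037 and BMI1 was at 0.46. With NCD38-β2PIPP, 1 of 10 reached it, against 11.2% of expressed genes in either direction and 10.3% higher. This was BMI1 at 1.26, and SUZ12 followed at 0.97, RNF2 at 0.84, EZH1 at 0.69 and EZH2 at 0.60. The median of the 10 genes was 0.49 beside 0.17 over all expressed genes. RING1 at -0.28, CBX8 at -0.12 and CBX2 at -0.02 were below DMSO. After the trend with GC content was subtracted, the median was 0.11 and BMI1 was at 0.46, so that 0 of 10 reached 2-fold (2.04% of genes), while EZH1 kept a ratio of 0.58. SUZ12 was then at 0.13, RNF2 at 0.16 and EZH2 at 0.06.

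**Figure D3:**
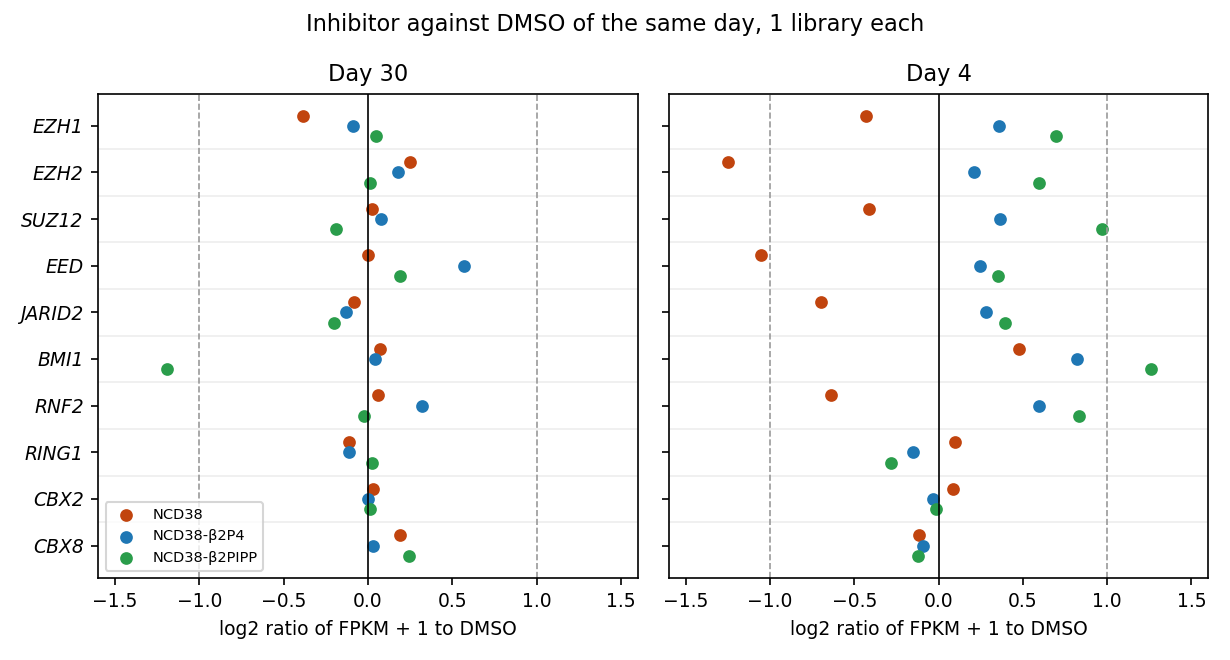
Log2 ratio of FPKM plus 1 of each inhibitor to DMSO of the same day for the 10 genes, with 1 library in each condition and dashed lines at 2-fold. On day 30 BMI1 with NCD38-β2PIPP lies lowest at -1.19 and EED with NCD38-β2P4 highest at 0.57, and on day 4 EZH2 and EED with NCD38 lie at -1.25 and -1.05 and BMI1 with NCD38-β2PIPP at 1.26.

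BMI1 needs its neighbour beside it. The table also lists COMMD3-BMI1, a read-through locus at chr10:22605317-22618471 on the plus strand that runs from COMMD3 into BMI1 and shares its exons, so Cufflinks had to divide fragments between both entries. In the order of treatments used above, COMMD3-BMI1 was at 1.48, 4.37, 3.31 and 4.20 FPKM on day 30 and at 1.19, 0.0640, 1.25 and 2.01 FPKM on day 4. The BMI1 entry made up 76.7% of the sum of both with DMSO on day 30, and 19.7% with DMSO and 92.6% with NCD38 on day 4. The division between the entries thus differed between libraries in both directions. In the sum of both entries, a measure chosen after the values were seen, the log2 ratio of NCD38-β2PIPP to DMSO was -0.12 on day 30, in place of -1.19, and 1.04 on day 4. With NCD38 the sum gave 0.52 on day 30 and -0.41 on day 4, where BMI1 alone gave 0.07 and 0.48. Between the days the sum was higher on day 30 in 4 of 4 treatments, by 1.56, 2.50, 1.41 and 0.41 on the log2 scale. COMMD3 itself, an adjacent gene, was between 61.8 and 71.4 FPKM on day 30 and between 18.9 and 45.5 on day 4. BMI1 rested on few fragments on day 4, with an estimated 18.2 for DMSO and a counting half-width of 0.72 for the ratio of NCD38-β2PIPP.

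**Figure D4:**
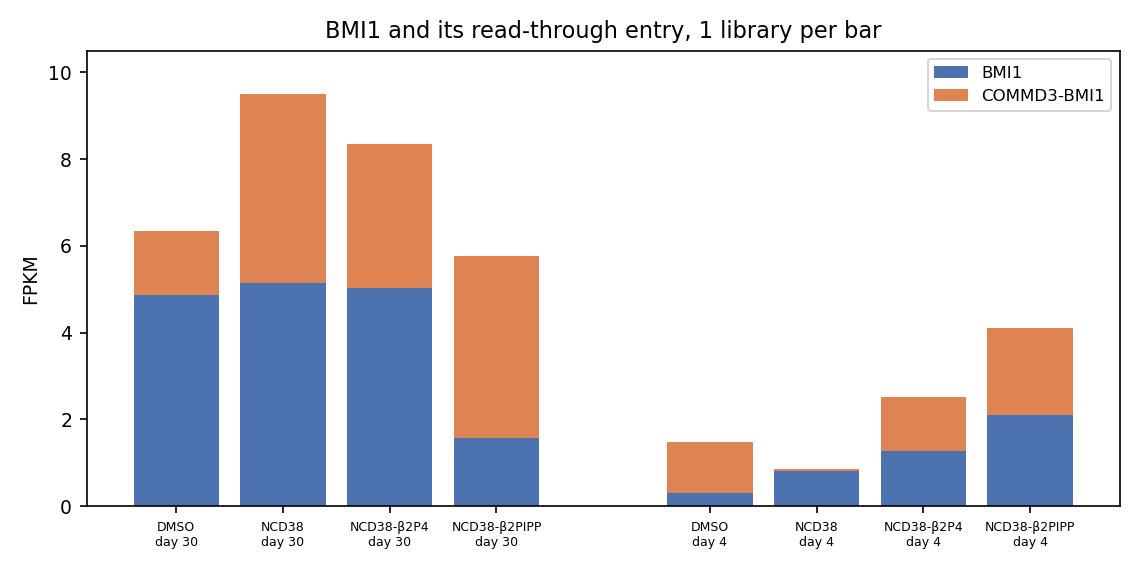
FPKM of BMI1 and of the read-through entry COMMD3-BMI1 stacked for each of the 8 libraries, with 1 library per bar. The BMI1 part is 1.56 with NCD38-β2PIPP on day 30, where the whole bar is 5.76, beside 4.86 and 6.33 with DMSO.

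The inhibitors were also tested over both days, in the same limma fit as the days, in which the libraries of both days stand for a treatment. An inhibitor effect that differs between the days adds to the error here. With NCD38 against DMSO, 0 of 10 genes passed an adjusted p of 0.05 in limma, beside 0.0368% of expressed genes, and 0 had an unadjusted p under 0.05. The log2 differences lay between -0.53 for EED and 0.27 for BMI1. With NCD38-β2P4, 0 of 10 passed, beside 0.0184%, and 0 had an unadjusted p under 0.05, with differences between -0.13 for RING1 and 0.46 for RNF2. With NCD38-β2PIPP, 0 of 10 passed, beside 0.0184%, and again 0 had an unadjusted p under 0.05, with differences between -0.13 for RING1 and 0.40 for RNF2. The 95% intervals reached 0.44 on either side of the estimate for RING1, the most precise gene, and 1.49 for BMI1, the least precise. For EZH2 with NCD38 the difference was -0.50, from -1.74 to 0.74, which includes a 2-fold decrease. Without the NCD38 library of day 4 it was 0.35.

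**Figure D5:**
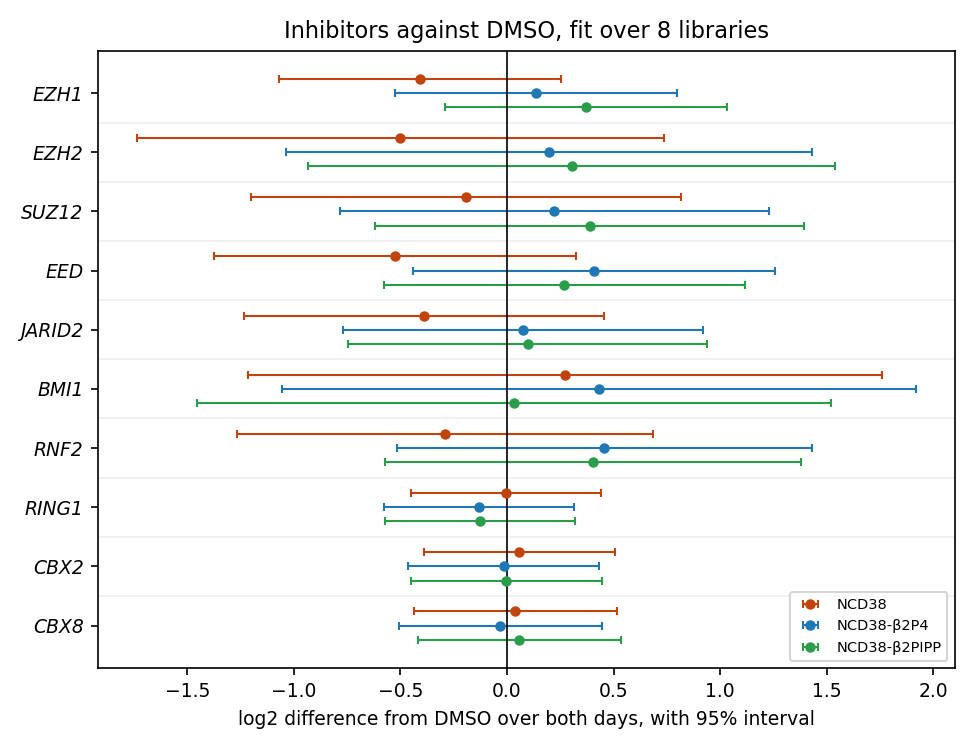
Log2 difference of each inhibitor from DMSO over both days for the 10 genes, with 95% intervals from limma over 8 libraries. All 30 intervals include 0, and they are narrow for RING1, CBX2 and CBX8 and wide for EZH2 and BMI1.

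The conjugates were compared with NCD38 and with each other at the same labelled dose and on the same days, in 3 pairs. NCD38-β2P4, which carries the pyrrole polyamide, was above NCD38 by 0.93 for EED, with an interval from 0.09 to 1.78, and by 0.75 for RNF2, from -0.23 to 1.72. No member passed (0 of 10, beside 0.0092% of expressed genes). EED was the 1 member under 0.05 before adjustment, at 0.0362, with a limma adjusted p = 0.710. NCD38-β2PIPP was above NCD38 by 0.78 for EZH1, from 0.12 to 1.44, and by 0.80 for EZH2, from -0.43 to 2.04. Here 0 of 10 passed, beside 0.0184%. EZH1 was the 1 member under 0.05 before adjustment, at 0.0284, with a limma adjusted p = 0.530. Between the conjugates, which differ in a single ring of the polyamide, differences lay between -0.24 for EZH1 and 0.40 for BMI1. None of the 10 passed (0, beside 0.0276%) or had an unadjusted p under 0.05 (0 of 10). For EZH2 the conjugates differed by -0.11, from -1.34 to 1.13, an interval that still holds more than a 2-fold difference either way. For CBX2 it was -0.01, from -0.46 to 0.44.

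Ratios of FPKM within a library do not depend on its scaling. The ratio of EZH2 to EZH1 lay between 2.71 and 4.67 on day 30 and between 3.25 and 5.42 on day 4, which overlap. RING1 exceeded RNF2 by a ratio of 4.08 to 5.94 on day 30 and of 9.84 to 66.2 on day 4, without overlap, and the highest was the NCD38 library. CBX8 over CBX2 was between 1.62 and 1.94 on day 30 and between 0.890 and 1.03 on day 4, so the CBX genes were near parity on day 4 only. EZH2 over SUZ12 was between 1.87 and 2.20 on day 30 and between 6.60 and 13.0 on day 4, whereas EZH2 over EED, a pair of equal GC content, was between 1.60 and 2.62 and between 1.97 and 2.42.

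Further genes of the Polycomb system were taken from a list of 46 symbols, of which 44 were in the table and 37 expressed. In the day fit, 8 of 37 were higher and 14 of 37 lower on day 30. Of all expressed genes 30.2% were higher and 31.7% lower, which is 61.9% in either direction. The 37 genes had a median log2 difference of -0.28 beside -0.02 over all expressed genes. The highest were USP16, a histone H2A deubiquitinase, at 2.85 (limma adjusted p = 0.000413), PCGF6, a PRC1 subunit, at 1.46 (limma adjusted p = 0.00802), and MTF2, a PRC2 accessory protein, at 1.38 (limma adjusted p = 0.00678). The lowest were CBX6, a chromobox gene like CBX2, at -1.70 (limma adjusted p = 0.000575), PHF19, a paralog of MTF2, at -1.56 (limma adjusted p = 0.000527), and L3MBTL2, a PRC1 subunit, at -1.36 (limma adjusted p = 0.000752). They follow the same order of GC content as the members, with 37.8%, 42.0% and 37.5% for the higher and 59.3%, 56.6% and 55.9% for the lower genes. By kind, the 6 expressed PRC2 genes had median log2 ratios to DMSO, with the inhibitors in the order above, of 0.19, 0.18 and 0.03 on day 30 and of -0.15, 0.15 and 0.22 on day 4. The 21 expressed PRC1 genes had 0.18, 0.06 and -0.11, and -0.25, 0.11 and 0.24. The 8 genes of H2A deubiquitination had 0.05, -0.04 and -0.08, and -0.32, 0.10 and 0.34.

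By the log2 ratio with 1 added to each FPKM, no further gene reached 2-fold with an inhibitor on day 30 (0 of 37 with each). Of all expressed genes 1.66%, 1.0% and 1.17% did, with the inhibitors in the order above. On day 4, 3 of 37 were lower with NCD38, beside 4.54% of all expressed genes. RBBP4, a histone-binding subunit of PRC2, was at 4.82 against 13.1 FPKM with DMSO, USP7, a deubiquitinase found with PRC1, at 3.41 against 9.17, and OGT, a sugar transferase that works with the H2A deubiquitinase, at 4.97 against 11.0. With NCD38-β2PIPP, 4 of 37 were higher, beside 10.3% of all expressed genes. These were ASXL2 at 5.33 against 1.56 FPKM, MTF2 at 2.24 against 0.441, USP7 at 21.3 against 9.17 and PCGF6 at 3.20 against 1.06. USP7 thus went in opposite directions with these inhibitors. With NCD38-β2P4, 0 of 37 reached 2-fold on day 4, beside 1.91% of all expressed genes. By this ratio, the H3K27 demethylases KDM6A and KDM6B, which remove the mark of PRC2, reached 2-fold with no inhibitor. KDM6A was low, so the added 1 made its ratios smaller. On day 4 its FPKM was 0.608 under NCD38 and 3.53 under NCD38-β2PIPP, against 1.39 under DMSO. Without the added 1, both were more than 2-fold from DMSO. Under NCD38-β2P4 on that day KDM6A was at 2.55 FPKM. KDM6B was between 4.91 and 8.08 FPKM on day 30 and between 10.9 and 14.1 on day 4.

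Proliferation genes differed in the same comparisons, and their part in the levels of EZH2 was not tested. Among 11 expressed G2/M genes, 6 exceeded DMSO by at least 2-fold on day 30 under NCD38, beside 1.66% of all expressed genes in either direction. The median log2 ratio of the 11 was 1.07, in a comparison in which EZH2 was at 0.25. The conjugates gave 0.36 and 0.34 on that day. On day 4 the medians were -0.56, 0.26 and 1.07 for the inhibitors in that order, beside -1.25, 0.21 and 0.60 for EZH2. With NCD38-β2PIPP on day 4, 6 of the 11 were at least 2-fold higher, beside 10.3% of all expressed genes. With NCD38 and NCD38-β2P4 on that day, 0 of the 11 were 2-fold higher or lower. The medians of the 12 S phase genes were -0.17, 0.30 and 0.04 on day 30 and -0.51, 0.15 and 0.28 on day 4. Of 10 loci that Polycomb complexes commonly repress, 3 were expressed, CDKN1C between 3.54 and 7.73, GATA4 between 4.99 and 8.81 and CDKN2B between 0.783 and 3.49 FPKM, and none of the 3 reached 2-fold with an inhibitor. SOX17, NEUROG1, OLIG2 and WNT1 were listed at 0 in all 8 libraries, and CDKN2A was at most 0.273, PAX6 at most 0.0775 and GATA6 at most 1.44 FPKM.

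Because the conjugates were designed for sequence, the 250 bases before the transcription start of the members were searched in RefSeq on GRCh38.p14, on both strands. Entries existed for 8 of the 10 genes, 11 promoters in all. A run of 6 bases that are each A or T was found at RNF2, JARID2, EZH2, SUZ12 and EZH1, and in 58.7% of all 35116 promoters of this length. This share counts promoters, not genes. JARID2 and EZH2 each have another entry without such a run, for EZH2 at chr7:148883486-148883735. CG with 2 bases of A or T on both sides was found in 0 of the 11, and in 13.9% of all. The letters TTTCCCGC or TTTGGCGC, which belong to E2F sites, were found at SUZ12 only, and in 1.93% of all. The promoters of EZH2 and SUZ12 are shown as examples from PRC2 genes with such matches, read 5′ to 3′ on the strand of the gene, with matches in capitals. They lie at chr7:148884292-148884541 on the minus strand and at chr17:31936757-31937006 on the plus strand of GRCh38.p14. At SUZ12 the run of A and T overlaps the E2F-type match.
EZH2: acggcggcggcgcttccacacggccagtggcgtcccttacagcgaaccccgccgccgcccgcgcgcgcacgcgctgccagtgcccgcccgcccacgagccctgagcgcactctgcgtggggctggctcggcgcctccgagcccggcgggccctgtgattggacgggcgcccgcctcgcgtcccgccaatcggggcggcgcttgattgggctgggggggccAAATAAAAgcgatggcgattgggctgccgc
SUZ12: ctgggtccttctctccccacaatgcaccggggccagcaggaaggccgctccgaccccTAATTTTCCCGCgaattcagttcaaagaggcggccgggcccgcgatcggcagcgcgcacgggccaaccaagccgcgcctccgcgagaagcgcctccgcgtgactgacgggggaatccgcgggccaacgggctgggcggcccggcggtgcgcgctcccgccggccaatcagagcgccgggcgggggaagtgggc
A match is a description of letters and shows no binding, and EZH2 and SUZ12 did not pass the test with either conjugate over both days.

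Genes whose levels moved most like EZH2 and RNF2 were sought among expressed genes, by Pearson correlation of log2 of FPKM plus 1 centred within each day, over 8 libraries. For EZH2 these were NUDT19 (0.9991), COPS5 (0.9988) and FAM136A (0.9987), and for RNF2 they were DLAT (0.9985), STK39 (0.9979) and ERI1 (0.9977). Among the members, EZH2 was most like JARID2, at 0.964, and least like RING1 and CBX2, at -0.88 and -0.89. These are descriptions over libraries that differ in depth and in their trend with GC content. EZH2 spanned 14.3 to 17.1 FPKM on day 30 and 4.14 to 17.4 on day 4, so its correlations rest mostly on the day 4 libraries.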

How the data were processed

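RNA-seq libraries of RKO cells, 1 per condition, were prepared by the authors with a stranded mRNA kit. The Methods name TopHat for alignment, whereas the processing notes list HISAT2, with Cufflinks and hg19. The authors deposited FPKM values estimated by Cufflinks for each gene and library, without counts. Whether counting used strand, and the annotation, are not given in the sources used here. FPKM is divided by gene length and depth, and an exact 0 can be a failed estimate.

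From the 25594 rows, 90 with a repeated name were left out. Log2 of FPKM plus 1 was compared between libraries, and limma 3.58.1 with trend in R 4.3.3 was fitted over all 10865 expressed genes (mean FPKM of at least 1). In simulated data for 10865 genes with 200 changed by 2 on the log2 scale, 82% were recovered for the day and 52% for NCD38 against DMSO. GC content came from GENCODE release 44 transcripts on GRCh37, for 10184 genes (93.7%). The transcript tagged as canonical was taken first, then those tagged as basic, and length decided only among equals. Depth was estimated from low FPKM with transcript length less 150 nt. Python 3.11.15 with pandas 2.3.3 was used.

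The members and gene lists were chosen with earlier results of these data known. The named genes are the 10 members, listed Polycomb genes at least 2-fold changed with an inhibitor, the 3 highest and 3 lowest of these in the day fit, the 3 genes most like EZH2 and RNF2, and genes of the marker, proliferation and repressed lists where a result turns on them. The alternatives changed the pseudocount, scaling, filter, fold, GC trend, trend of variance, terms of the fit and libraries. Sequences of members are from GENCODE and RefSeq.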

Additional observations from a re-analysis of the deposited data

Results flagged for a closer look

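Members whose log2 ratio to DMSO had opposite signs on day 30 and day 4 are given here. The ratio without the added 1 had to exceed its counting half-width on each day, whereas the values printed include the added 1. The difference between the days was not tested for any of them. EZH2 with NCD38 was at 0.25 on day 30 and -1.25 on day 4. SUZ12 with NCD38-β2PIPP was at -0.19 on day 30 and 0.97 on day 4. JARID2 with NCD38-β2PIPP was at -0.20 and 0.39. Its day 30 value lay inside its half-width of 0.29, and only the ratio without the added 1, at -0.33, was beyond it. BMI1 with NCD38-β2PIPP was at -1.19 and 1.26, where the sum with the read-through entry gave -0.12 and 1.04. After the trend with GC content was subtracted, SUZ12 came to -0.19 and 0.13 and BMI1 to -1.21 and 0.46. Their day 4 values then lay inside half-widths of 0.40 and 0.72. By the same step EZH2 came to 0.18 and -0.65, and JARID2 to -0.17 and 0.28. The half-widths cover counting error only, and the share of genes that chance would flag is not known with 1 library per condition.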

How the results depend on the processing

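With 1 library per condition, comparisons within a day carry no test, and FPKM without counts limits the precision, most for BMI1, SUZ12 and RNF2 on day 4. Of 706 alternative values, 555 were labelled as unchanged, by a rule that differed by kind of value. A ratio had to move by less than its counting half-width, and could still cross 2-fold or, if below 2-fold, change sign. A count could differ by up to 1.5-fold. A fit coefficient had to keep its sign and its side of the threshold. With the GC trend subtracted, members past 2-fold numbered 0 for NCD38 and 0 for NCD38-β2PIPP on day 4, and 1, 1, 0 and 0 between the days (DMSO first, then the inhibitors in their usual order), and 4 passed the day fit. In that setting RNF2 turned between the days, to -0.32 for DMSO, -0.074 for NCD38, -0.58 for NCD38-β2P4, -0.57 for NCD38-β2PIPP and -0.40 in the fit. RING1 turned to 0.15, 0.14, 0.22 and 0.37 in the same 4 treatments and to 0.23 in the fit. BMI1 with NCD38 turned to -0.057, and CBX8 turned to 0.20 with NCD38 and to 0.16 with NCD38-β2PIPP. With DMSO, EZH2 turned to -0.098, EED to -0.20 and JARID2 to 0.27 between the days. In the day fit JARID2 turned to 0.13 and CBX8 to 0.048. Against DMSO over both days, EZH2 with NCD38-β2P4 turned to -0.019. Other members turned there too, among them SUZ12, from 0.22 to -0.085 with NCD38-β2P4 and from 0.39 to -0.032 with NCD38-β2PIPP. BMI1 with NCD38-β2PIPP turned from 0.03 to -0.39. With a pseudocount of 0.1, members past 2-fold on day 4 were 5 for NCD38, 1 for NCD38-β2P4 and 3 for NCD38-β2PIPP, beside 15.4%, 5.73% and 22.2% of all genes. At 1.5-fold they were 4, 2 and 5, beside 24.6%, 9.54% and 29.0%. With rescaled libraries the count for NCD38 on day 4 was 0, beside 2.83%. With genes at 1 FPKM or more in all 8 libraries, which drops SUZ12, BMI1, RNF2 and JARID2, it was 0 of 6 for NCD38-β2PIPP on day 30 and 0 on day 4, beside 0.139% and 7.35%. Between the days it was 1, 4, 1 and 1, beside 35.1%, 47.6%, 32.7% and 30.5%, and 4 in the fit, beside 61.0%.

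In the day fit, BMI1 had a limma adjusted p of 0.0513 with the pseudocount of 0.1 and 0.0796 with no filter. After rescaling, RING1 had a limma adjusted p of 0.101 and EED one of 0.0350. Leaving out 1 library gave 2 to 7 members in the day fit, beside 42.0% to 65.4% of all expressed genes. BMI1 did not pass without any 1 of the DMSO, NCD38 or NCD38-β2P4 libraries (limma adjusted p = 0.114 to 0.163). For EZH2 it gave -1.35 to 0.35 for NCD38 and -0.23 to 0.84 for NCD38-β2PIPP against DMSO. Against NCD38 it gave -0.15 to 1.55 for NCD38-β2P4 and -0.046 to 1.65 for NCD38-β2PIPP, and between the conjugates -0.64 to 0.43. A condition left with 1 library there is assumed to vary like the others. The causes were not tested. The labels carry no replicate numbers, so libraries could be paired by treatment only. The treatment term of the fit does this and sets the days against each other within each treatment.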
